A study of Homo sapiens with 14 samples.

Results

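The T cell line Jurkat carried high levels of the terminal transferase gene DNTT and of the CD1 genes of cortical thymocytes, while both recombinase genes, the pre-T receptor gene PTCRA and the coreceptor genes CD4, CD8A and CD8B were read at only a few counts per library. These values concern 10 genes that mark stages of thymocyte development, RAG1, RAG2, DNTT, PTCRA, CD1A, CD1B, CD1E, CD4, CD8A and CD8B, out of 58440 genes in the files. They were picked by name as genes known to be switched on and off along T cell development, and every one was found once. RNA-seq was performed on 14 libraries, 2 for each of 7 conditions: HEK cells alone, Jurkat cells alone, and mixtures in which Jurkat cells made up 20%, 40%, 50%, 60% or 80% of 1000000 cells, the rest being HEK cells. HEK cells are the HEK-293T line, which descends from human embryonic kidney and carries the SV40 large T antigen. Jurkat is a line grown from a T cell acute lymphoblastic leukemia. Both are established lines without further treatment, grown in different media, DMEM for HEK-293T and RPMI for Jurkat, and ERCC spike-in RNA was added to all libraries. The 2 libraries of a condition are described as technical replicates and nothing says that they came from separate cultures, so that p-values below measure only the spread between libraries, which may be technical.

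Thymocytes pass through a double negative stage without CD4 and CD8, a double positive stage with both, and a single positive stage with one of them. RAG1 and RAG2 form the recombinase that cuts antigen receptor genes, and terminal transferase adds bases without a template to the cut ends before they are joined. The product of PTCRA pairs with the first rearranged receptor chain, the beta chain, and the cell then divides and enters the double positive stage. CD1A, CD1B and CD1E belong to a family of MHC-like proteins that carry lipids, and cortical thymocytes are known for them. CD4 and CD8 are the coreceptors that bind MHC class II and class I.

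The libraries held between 4468822 and 28303668 gene counts with a median of 13505082, and both pure Jurkat libraries were shallower than all others, at 4468822 and 6204316. Levels are given as CPM, counts per 1000000 gene counts with spike-ins left out, which compares 1 gene between libraries, or as TPM, which divides by length and compares genes with each other. All 12 genes of T lineage identity were higher in pure Jurkat than in pure HEK by the quasi-likelihood test of edgeR (p adjusted after Benjamini and Hochberg), and their summed level was 2103 to 2295 CPM against 14.3 to 17.8 CPM. All 9 tested genes of HEK identity were lower, beside 3002 genes higher and 3825 lower among all 15794 genes tested. The file names of the libraries carry a label of 2 kinds whose meaning is not given in the sources used here. Both pure HEK libraries have one label and both pure Jurkat libraries the other, so that line and label cannot be told apart in the comparison of pure lines. Both labels occur among the mixtures, but there the label partly follows the percentage of Jurkat cells. Both libraries at 20% carry the label of pure HEK, and all libraries at 60% and 80% carry that of pure Jurkat. Only at 40% and 50% do the 2 libraries carry different labels.

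The 250 bases before the annotated start are shown for 2 genes with high levels in Jurkat, CD1A and DNTT, and for RAG1, which was near the counting floor, because E proteins and their E box motif are known regulators of thymocyte genes. Sequences are from the RefSeq promoter table for GRCh38.p14, on the strand of the gene, with E boxes (CAGNTG on either strand) in capitals. CD1A lies at chr1:158254174-158254423 on the plus strand, DNTT at chr10:96304184-96304433 on the plus strand and RAG1 at chr11:36510103-36510352 on the plus strand, and each window holds 1 E box.
CD1A: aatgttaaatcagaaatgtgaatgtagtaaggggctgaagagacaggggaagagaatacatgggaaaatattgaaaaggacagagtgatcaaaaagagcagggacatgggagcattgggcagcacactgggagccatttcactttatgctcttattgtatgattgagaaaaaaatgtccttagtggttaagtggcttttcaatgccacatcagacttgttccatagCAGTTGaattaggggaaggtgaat
DNTT: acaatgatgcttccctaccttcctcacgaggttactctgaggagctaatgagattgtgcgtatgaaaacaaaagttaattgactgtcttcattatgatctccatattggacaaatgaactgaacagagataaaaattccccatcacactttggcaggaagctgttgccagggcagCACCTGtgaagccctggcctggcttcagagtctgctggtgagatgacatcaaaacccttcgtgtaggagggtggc
RAG1: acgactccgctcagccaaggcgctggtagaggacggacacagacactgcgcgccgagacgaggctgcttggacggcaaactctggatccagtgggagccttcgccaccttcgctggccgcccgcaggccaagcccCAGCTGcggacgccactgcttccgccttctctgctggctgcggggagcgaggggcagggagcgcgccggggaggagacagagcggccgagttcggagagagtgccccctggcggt
The table held promoters of 7 of the 10 genes, in 11 windows, and did not list CD1B, CD4 and CD8B. An E box was present in 9 of these 11 windows and in 42.5% of all 35116 windows of the same length. Windows are not separate genes, since those of CD8A held 0, 2, 1 and 2 E boxes. CD1A has another window, chr1:158248086-158248335, with 1 E box. The RUNX motif TGTGGT was in 2 of the 11 windows and in 11.0% of all, the GATA motif AGATAA in 3 and in 9.2% of all, and the TCF and LEF motif CTTTGA in 0 and in 11.2% of all. Each motif was searched on both strands. The window of CD1E held no E box, and that of PTCRA held 4. Starts are those of RefSeq, and some windows, such as that of CD1E (chr1:158353644-158353893), overlap the gene spans given below, which follow GENCODE. These letters therefore occurred before genes that were high and before genes that were near the floor in Jurkat.

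CD1E was the highest of the 10 genes in pure Jurkat. Its gene (ENSG00000158488.15) spans chr1:158353696-158357553 on the plus strand, and its product stays inside the cell, where it helps other CD1 proteins to take up lipids. CD1E had 178 and 185 CPM in the pure Jurkat libraries and 0.317 and 0.198 CPM, 3 counts each, in the pure HEK libraries. The mixtures lay between the lines in the order of their Jurkat cells, with 7.47 and 7.79 CPM at 20%, 23.8 and 19.8 CPM at 40%, 29.1 and 33.7 CPM at 50%, 31.1 and 40.5 CPM at 60%, and 83.2 and 78.8 CPM at 80% Jurkat cells. Libraries of neighbouring conditions overlapped only at 50% and 60%. In pooled counts the level in Jurkat was 746-fold that in HEK, with a 95% counting interval from 342 to 2034.

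CD1A encodes the surface protein by which cortical thymocytes are usually recognised, and its gene (ENSG00000158477.6) spans chr1:158254424-158258269 on the plus strand. It had 32.1 and 31.0 CPM in pure Jurkat and no count in either pure HEK library. CD1A measured 1.99 and 2.56 CPM at 20%, 4.51 and 5.22 CPM at 40%, 4.54 and 8.40 CPM at 50%, 6.83 and 9.50 CPM at 60%, and 20.2 CPM in both libraries at 80% Jurkat cells. Every library with Jurkat cells was above both without them. Against a floor of 3 counts over both HEK libraries, CD1A was at least 258-fold higher in Jurkat.

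CD1B encodes the member with the largest lipid groove, and its gene (ENSG00000158485.10) spans chr1:158327951-158331531 on the minus strand. It was lower, with 9.87 and 12.2 CPM in pure Jurkat, again with no count in HEK, which makes it at least 92.1-fold higher in Jurkat. CD1B measured 0.703 and 0.625 CPM at 20%, 2.49 and 2.05 CPM at 40%, 1.95 and 4.94 CPM at 50%, 2.83 and 5.29 CPM at 60%, and 7.70 and 7.63 CPM at 80% Jurkat cells. The libraries at 50% overlapped with those at 40% and at 60%, and those at 20% and 80% stood apart from them.

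The CD1 genes lie side by side on chromosome 1, and the remaining genes of the family were read in Jurkat as well. CD1C, which presents lipids to T cells as CD1A and CD1B do, had 15.4 and 10.5 CPM in pure Jurkat and no count in HEK. CD1D, which presents lipids to natural killer T cells, had 9.49 and 14.1 CPM in pure Jurkat against 0.212 and 0.132 CPM in HEK. CD1E took 72.7% and 73.2% of all CD1 counts in the pure Jurkat libraries and 59.2% to 72.0% in the 10 mixtures, so that it was the main CD1 transcript in every library with Jurkat cells. Of the 9 other protein-coding genes within 300 kb, OR10R2, an olfactory receptor gene, had 19.0 and 23.3 CPM in pure Jurkat and no count in HEK, and KIRREL1, a cell adhesion gene, had 3.13 and 25.9 CPM. The other 7, all olfactory receptor genes, had at most 1.94 CPM on average.

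**Figure D1:**
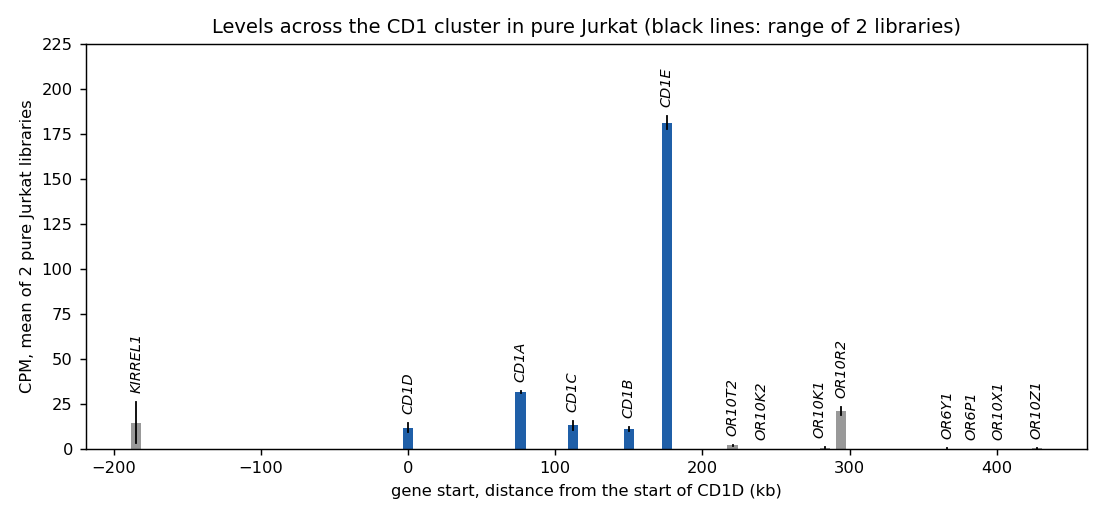
Bars show the mean CPM of the 2 pure Jurkat libraries for CD1 genes (blue) and their protein-coding neighbours (grey), placed by the distance of the gene start from that of CD1D in kb, and black lines show the range of both libraries. CD1E stands at 181 CPM, the other CD1 genes between 11.0 and 31.5 CPM, and OR10R2 beyond the cluster at 21.1 CPM.

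DNTT (ENSG00000107447.7, chr10:96304409-96338564, plus strand) was the second highest of the 10 genes. It had 47.2 and 50.4 CPM in pure Jurkat and 0.423 and 0.132 CPM, 4 and 2 counts, in pure HEK, a ratio of pooled levels of 201 with a counting interval from 91.9 to 551. DNTT measured 2.51 and 3.07 CPM at 20%, 7.64 and 7.96 CPM at 40%, 12.3 and 13.6 CPM at 50%, 10.0 and 16.4 CPM at 60%, and 60.2 and 27.7 CPM at 80% Jurkat cells. The first library at 80% was above both pure Jurkat libraries, and the second was below them.

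This pair of libraries differed for DNTT more than for most genes. DNTT in the first was 2.17-fold that in the second, and 198 of 11302 genes with a mean of at least 5 CPM, 1.75%, had a ratio at least as high, while the median over these genes was 0.979. Per count of CD1E, DNTT had 0.723 counts in that library, 0.351 in its partner, 0.321 to 0.423 in the 8 other mixtures, and 0.266 and 0.273 in pure Jurkat. Whether the difference lies in the cells or in the library was not tested.

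The recombinase genes were near the floor. RAG1 (ENSG00000166349.9, chr11:36510372-36593156, plus strand) had 4.25 and 6 expected counts in the pure Jurkat libraries, or 0.951 and 0.967 CPM, and 0 and 4 counts in pure HEK. Its mixtures held between 0 and 8 counts. The pooled level in Jurkat was 5.91-fold that in HEK with a counting interval from 1.66 to 25.2, but in TPM the order was not kept, with 0.155 and 0.211 in Jurkat against 0 and 0.456 in HEK.

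RAG2 (ENSG00000175097.7, chr11:36575574-36598279, minus strand) had 5.75 and 6 expected counts, or 1.29 and 0.967 CPM, in pure Jurkat and none in pure HEK, at least 9.03-fold higher in Jurkat. Its mixtures held between 0 and 9.92 counts. RAG1 and RAG2 share 588 exonic bases on opposite strands, and RAG2 shares 372 with IFTAP, also on the opposite strand. The counting is not stated to use strand. RAG2 had no count in HEK where IFTAP had 1019 counts over both libraries, and in Jurkat IFTAP had 5.

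PTCRA (ENSG00000171611.9, chr6:42915989-42925838, plus strand) had 4 counts in each pure Jurkat library, 0.895 and 0.645 CPM, and none in pure HEK. It had 0 to 2 counts in the mixtures up to 60% and 7 and 5 counts at 80% Jurkat cells. The level in Jurkat was at least 6.15-fold higher. DNTT is expressed with the recombinase during receptor rearrangement in thymocytes, and here its level in TPM was 26.7 ± 0.811 (SD, n = 2) in pure Jurkat where RAG1, RAG2 and PTCRA were between 0.183 and 1.14 TPM on average. In bulk RNA, a low level in all cells and a higher level in few cells cannot be told apart.

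Coreceptor transcripts were also few. CD4 (ENSG00000010610.9, chr12:6786858-6820799, plus strand) had 7 and 4 counts in pure Jurkat, 1.57 and 0.645 CPM, and 1 and 0 counts in pure HEK, a ratio of 25.4 with a counting interval from 3.69 to 1092. The mixtures held from 1 to 14 counts of CD4, with the 2 highest, 10 and 14, at 80% Jurkat cells. CD8B (ENSG00000172116.21, chr2:86815339-86861924, minus strand), which encodes the beta chain of CD8, had 4 and 10.6 expected counts in pure Jurkat, 0.895 and 1.71 CPM, and none in pure HEK, at least 11.2-fold higher. The near-identical gene CD8B2 had 3.4 counts over both Jurkat libraries, and reads that fit both genes are divided between them.

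CD8A (ENSG00000153563.15, chr2:86784610-86808396, minus strand), which encodes the alpha chain of CD8, did not follow the Jurkat cells. It had 1.12 and 0.645 CPM in pure Jurkat, 5 and 4 counts, and 0.635 and 1.65 CPM in pure HEK, 6 and 25 counts. The ratio of Jurkat to HEK was 0.669 with a counting interval from 0.280 to 1.44, and the mixtures lay between 0.791 and 1.95 CPM at every percentage. Per spike-in count the lines did not overlap, with 0.00790 and 0.0135 counts per 1000 spike-in counts in Jurkat against 0.0936 and 0.160 in HEK. This gap is not particular to CD8A. With spike-in totals, 14616 of all 15794 genes tested were called lower in Jurkat, with a median log2 difference of -3.61.

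**Figure D2:**
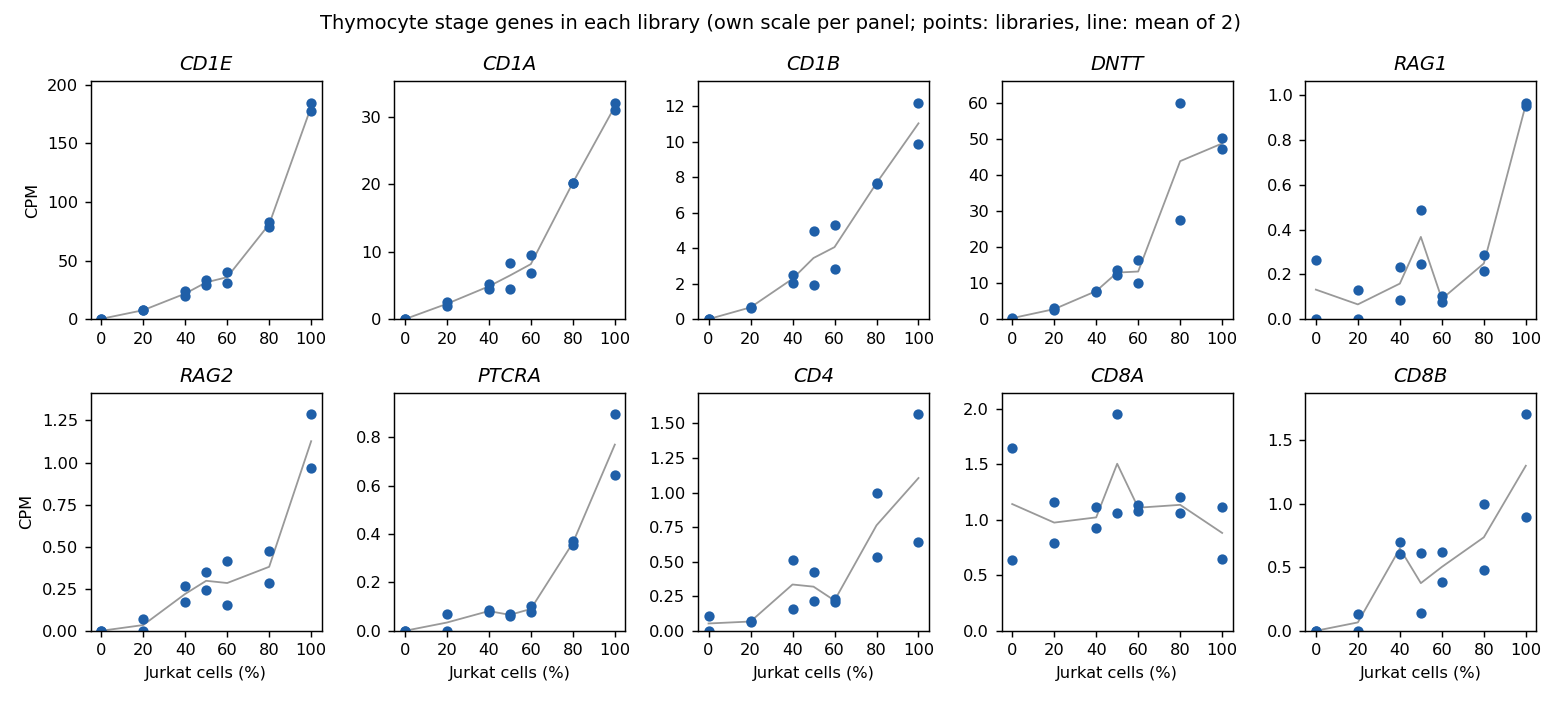
Each panel shows the CPM of 1 gene (y axis, own scale from 0) against the percentage of Jurkat cells (x axis), with a point for each of the 14 libraries and a grey line through the mean of each pair. The upper row holds CD1E, CD1A, CD1B and DNTT, which climb from at most 0.423 CPM in pure HEK, and RAG1, while RAG1 and the lower row stay under 2 CPM.

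The order of the genes in pure Jurkat, per length, was CD1E with 176 ± 10.7 TPM, DNTT with 26.7 ± 0.811 TPM, CD1A with 16.2 ± 0.676 TPM and CD1B with 9.89 ± 1.99 TPM (SD, n = 2). These stood at the 96.4, 84.6, 79.4 and 73.2 percentiles of the 25272 genes with a count in pure Jurkat, and the ranges of neighbours did not overlap. CD8B followed with 1.58 TPM, PTCRA with 1.14, RAG2 with 0.510, CD4 with 0.432, CD8A with 0.310 and RAG1 with 0.183 TPM on average. The ranges of CD8B and PTCRA overlapped, as did those of RAG2 and CD4 and of CD4 and CD8A. In CPM the first 5 places were the same and PTCRA fell to the last, since its transcript is the shortest of the 10. Reads from an oligo-dT primed library need not grow with transcript length, and whether TPM or CPM ranks these genes better was not tested.

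**Figure D3:**
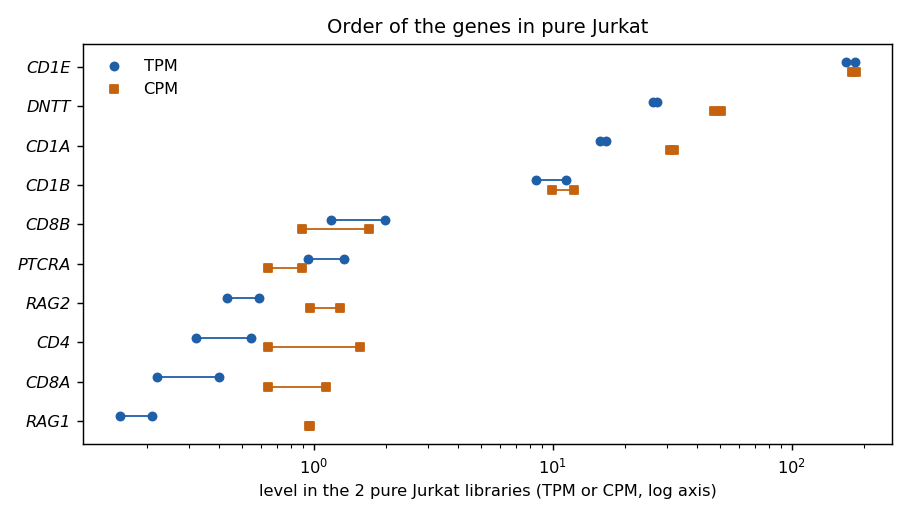
Pairs of points joined by a line show the level of each gene in the 2 pure Jurkat libraries in TPM (blue circles) and CPM (orange squares) on a log axis, ordered by mean TPM. CD1E, DNTT, CD1A and CD1B stand above 8 in both units, and the other 6 genes stand below 2.

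For the comparison of the pure lines, 15794 genes had enough counts to be tested, of which 3002 were called higher in Jurkat (19.0%) and 3825 lower, at an adjusted p under 0.05. CD1E, DNTT, CD1A and CD1B were tested and called higher, while the other 6 genes did not pass the filter on low counts. All 4 passed it only through Jurkat, with at most 0.423 CPM in any HEK library, so the 4 calls add nothing to the levels above. The log2 difference was 9.66 ± 0.34 (SE) for CD1E with an adjusted p of 0.00064 by edgeR, and 7.76 ± 0.45 for DNTT with an adjusted p of 0.00064. The adjusted p was 0.00073 for CD1A and 0.0014 for CD1B. With Bonferroni adjustment only CD1E of these 4 was called by edgeR, with an adjusted p of 0.010, beside 0.272% of all genes. DESeq2 with the same adjustment, the pair of methods used in the study, called all 4, beside 2.85% of all genes. The calls of the low genes depended on the method. Without the filter edgeR called 8 of the 10 genes higher, beside 11.2% of all 31686 genes, and RAG1 and CD8A were not called, with adjusted p of 0.11 and 0.76. DESeq2 called 6, beside 14.2% of all genes, and there CD4 had an adjusted p of 0.070 and PTCRA had none. When all 14 libraries shared the spread, edgeR called 7, beside 17.9% of all genes, and limma on log2 TPM called 6, beside 11.1%. CD8B was not called by edgeR with the filter when either HEK library was left out, with adjusted p of 0.092 and 0.10.

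The 10 mixtures are libraries that this comparison did not use, and they carry both file labels in part. Over them, 17242 genes were tested for a slope on the percentage of Jurkat cells, and 876 were called rising (5.08%) and 91 falling. DNTT, CD1E, CD1B and CD1A rose and CD8A, the fifth of the genes with enough counts, was not called. Per 10 percentage points of Jurkat cells the log2 slope was 0.65 ± 0.058 (SE) for DNTT, 0.56 ± 0.037 for CD1E, 0.55 ± 0.068 for CD1B and 0.52 ± 0.041 for CD1A, with adjusted p of 1.8e-05, 3.3e-06, 0.00020 and 9.5e-06 by edgeR. That of CD8A was 0.05 ± 0.067 with an adjusted p of 0.77. The differences between the 4 slopes were not tested. In pure HEK, CD1A and CD1B had no count and CD1E and DNTT at most 0.423 CPM. Adding Jurkat cells must therefore raise these 4 genes, so the 4 slope calls add nothing to the levels above. The same holds for other genes near 0 in HEK, which the counts of rising genes in the lists below include.

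Within the mixtures of each file label the slopes had the same direction. The first label, that of pure Jurkat, covers only 40% to 80% Jurkat cells, and the second, that of pure HEK, only 20% to 50%. In the 6 libraries of the first label, the log2 slope was 0.57 for CD1A, 0.53 for CD1B, 0.52 for CD1E and 0.64 for DNTT, with adjusted p of 0.025, 0.039, 0.025 and 0.055 by edgeR, so that DNTT was not called there. In the 4 libraries of the second, the slopes were 0.54, 0.89, 0.67 and 0.69 with adjusted p of 0.046, 0.029, 0.020 and 0.024. Without the first library at 80% the slope of DNTT over the other mixtures was 0.55 ± 0.056 with an adjusted p of 0.00020 by edgeR.

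A percentage of cells is not a percentage of RNA here, since the pure HEK libraries had 147 and 97.3 gene counts per spike-in count and the pure Jurkat libraries 12.1 and 12.3. The mean ratio was 10.03, or 7.98 and 12.1 by the single HEK libraries. The Jurkat share of RNA in each mixture was taken from 186 other genes with at least 20 CPM in pure Jurkat and at most 1 part in 50 of that in pure HEK, and was 3.47% and 3.58% at 20% Jurkat cells and 37.7% and 35.1% at 80%. These shares correspond to 6.61-fold to 7.94-fold more RNA per HEK cell over the 10 mixtures. A level was then predicted for each gene as the weighted sum of its levels in the pure lines. DNTT was above its prediction in all 10 mixtures, with a ratio of measured to predicted level from 1.15 to 3.24 and a median of 1.81. CD1A was above it in all 10 with 1.20 to 2.38 and a median of 1.80, and CD1B in all 10 with 1.47 to 4.01 and a median of 1.91. CD1E was closer to its prediction, with 0.981 to 1.65, a median of 1.26 and 9 of 10 libraries above it.

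The 186 genes themselves give the background for these ratios, since their median ratios ran from 0.536 at the 5th to 1.66 at the 95th percentile. DNTT and CD1A stood at the 97.3 percentile, CD1B at the 99.5 and CD1E at the 70.4 percentile of them, a place for which there is no test. The 186 genes were picked by their level in the same pure libraries and set the RNA share, so their ratios centre on the prediction by construction. CD1B, with 9.87 and 12.2 CPM in pure Jurkat, was below their cutoff of 20 CPM. All predictions for a gene share the same 4 pure libraries, so the 10 ratios of a gene are not independent. The medians were 1.74 for CD1A, 1.91 for CD1B, 1.26 for CD1E and 1.89 for DNTT in the mixtures of the first file label, and 2.04, 2.28, 1.36 and 1.65 in those of the second. For genes near the floor, counts were pooled over the mixtures. CD8A had 178 counts against 170.3 predicted, a ratio of 1.04 with a counting interval from 0.897 to 1.21, and RAG1 had 31 against 40.5, a ratio of 0.767 with 0.520 to 1.09. The ratio was 1.07 for PTCRA, 1.44 for RAG2, 1.54 for CD4 and 2.09 for CD8B, and those intervals leave out the few counts of the pure lines behind the prediction.

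**Figure D4:**
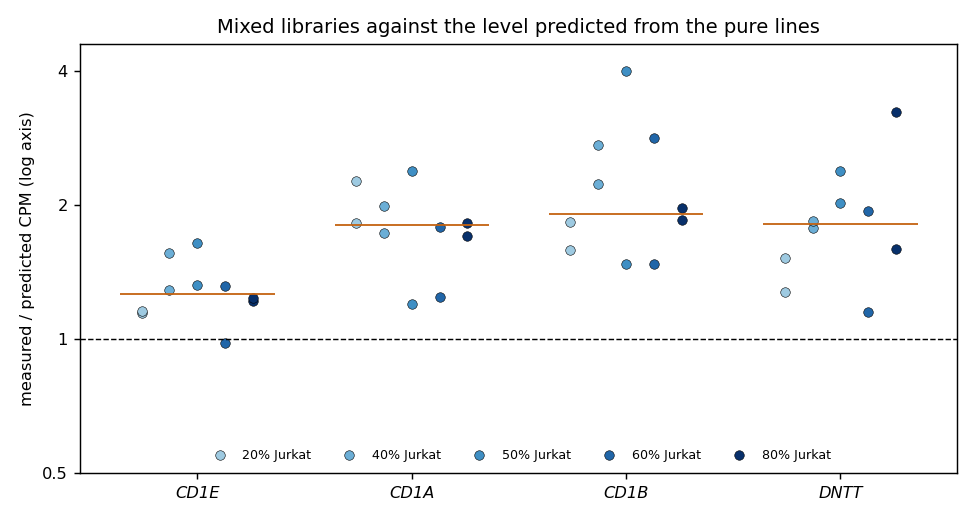
Points show the measured CPM divided by the CPM predicted from the pure lines (y axis, log scale) in each of the 10 mixtures, coloured by the percentage of Jurkat cells, with an orange line at the median of each gene and a dashed line at 1. CD1A, CD1B and DNTT are above 1 in every mixture, and the DNTT point at 3.24 is the first library at 80% Jurkat cells.

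The levels of 4 genes can be followed over all 14 libraries by the genes most like them in CPM, given as Pearson's r over these libraries among 11467 genes with a mean of at least 5 CPM. All points share the mixing series and no p is given. For CD1E these were ITGAL (r = 0.998), GIMAP1 (0.997) and CASP10 (0.997), and for CD1A they were PINLYP (0.996), ADA (0.996) and RAC2 (0.994). For CD1B they were RHOG (0.992), MAP4K1 (0.990) and TSTD1 (0.988). For DNTT they were CDK6-AS1 (0.996), CD3E (0.988) and ADAM10 (0.978).

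Other genes of thymocyte stages, listed by their known roles, set these levels beside more markers, each tested in the same fit of pure lines. That fit compares Jurkat with HEK and not with thymocytes. A difference or a list median therefore depends on the level in HEK as well and does not place Jurkat at a stage. Genes of the double positive stage were higher in Jurkat for 9 of 13 tested, and none was called lower. Over all 15794 genes tested, 19.0% were called higher and 3825 genes lower. The median log2 difference of the double positive list was 3.78, beside -0.07 over all genes tested. ARPP21, an RNA binding protein gene of cortical thymocytes, had 105 and 133 CPM in pure Jurkat and no count in HEK, at least 995-fold higher. TOX, a nuclear factor needed for positive selection, had a log2 difference of 8.17 ± 0.71, and CD5, a surface protein that tunes receptor signals, was at least 138-fold higher, with 19.5 and 14.8 CPM in Jurkat and none in HEK. The adjusted p of TOX by edgeR was 0.0014. ARPP21, TOX and CD5 passed the filter on low counts only through Jurkat. So did DTX1, IL7R, CD28, CD69, S1PR1, CD1C, CD1D, IGLL1, CD79A, NKG7 and PRF1 of the other lists. MEF2C, HHEX, KIT, ZBTB7B and NCAM1 passed it only through HEK. The calls of these and of other listed genes near 0 in either line add nothing to their levels, and list counts include them. CCR9, a homing receptor of this stage, was at 0 in all pure libraries and could not be tested. In the mixtures 8 of 13 genes of this list rose, beside 5.08% of all genes tested there.

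Genes of the double negative and progenitor stage did not move one way. Of 16 genes, 10 could be tested, 4 were higher and 5 lower in Jurkat, and the median log2 difference was -1.10. Over all 15794 genes tested, 19.0% were higher and 3825 genes lower. The 4 higher genes of the list were DTX1, a target of Notch signals, at least 122-fold higher with 14.3 and 15.3 CPM in Jurkat and none in HEK, IL7R, the interleukin 7 receptor (5.63 ± 0.39), NOTCH1, the receptor that commits cells to the T lineage (2.41 ± 0.25), and BCL11A, a progenitor factor (1.16 ± 0.22, all log2 ± SE). MEF2C and HHEX, both factors of early progenitors, were lower, with a log2 difference of -6.86 ± 0.66 and -5.14 ± 0.65, with under 0.5 CPM in both Jurkat libraries. In HEK, MEF2C had 24.8 and 30.1 CPM and HHEX 8.36 and 7.98 CPM. The other lower genes of the list were KIT (-2.80 ± 0.82), MME (-2.73 ± 0.58) and HES1 (-1.40 ± 0.23). HES1 still had 82.8 and 104 CPM in Jurkat, against 268 and 310 CPM in HEK. Defining surface markers were absent or near the floor in Jurkat: IL2RA was at 0 in both libraries, CD34 was at 0 and 0.645 CPM, KIT at 0 and 0.484 CPM and CD44 at 0 and 0.161 CPM. In the mixtures 3 of 11 tested genes rose and none fell, beside 5.08% of all genes tested there rising and 91 genes falling.

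Genes of the mature single positive stage were higher in Jurkat for 9 of 11 tested and lower for 2, with a median log2 difference of 5.04. Over all 15794 genes tested, 19.0% were higher and 3825 genes lower. CD28, a costimulatory receptor, had 34.0 and 35.8 CPM in Jurkat and 0.106 and 0 in HEK. CD69, an early activation marker, had 5.15 and 3.55 CPM in Jurkat and 0.106 and 0 in HEK. The 2 lower genes of the list were ZBTB7B, the factor that directs cells to the CD4 lineage, with a log2 difference of -3.93 ± 0.83 and 0 and 0.161 CPM in Jurkat, and FOXO1, a regulator of homing genes, with -1.61 ± 0.23. S1PR1, the receptor for leaving the thymus, was called higher but had 6.94 and 29.2 CPM in the 2 Jurkat libraries. Jurkat had transcripts from the lists of the double negative, the double positive and the mature stage. Their summed levels in pure Jurkat were 293 to 296 CPM over 16 genes, 1735 to 1873 CPM over 15 genes and 461 to 712 CPM over 12 genes. BCL11A of the double negative and progenitor list had 139 and 117 CPM. In the mixtures 7 of 10 tested genes rose, beside 5.08% of all genes tested there.

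**Figure D5:**
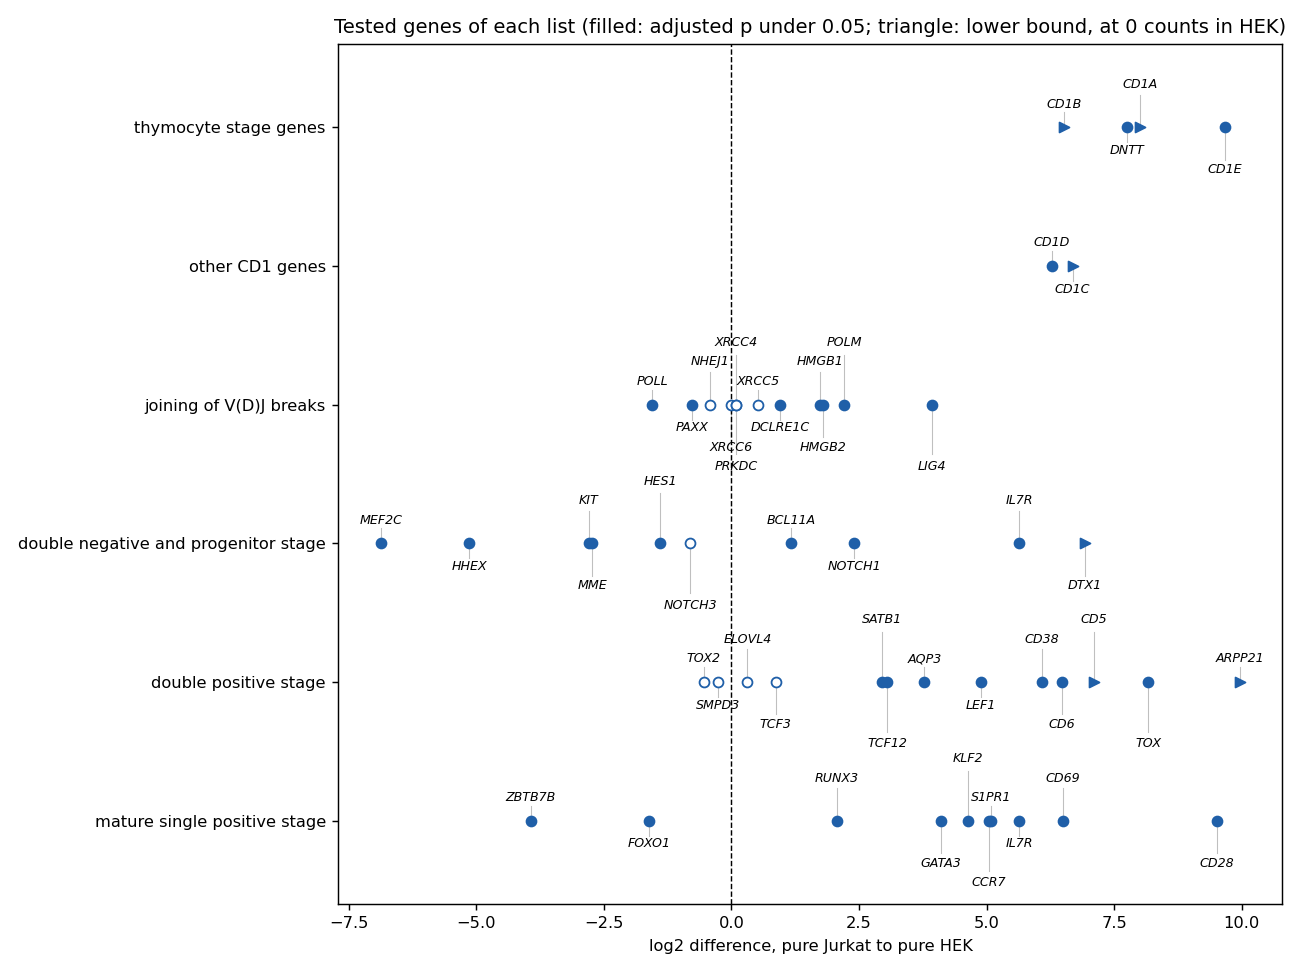
Points are tested genes (10 of the 11 in the mature row), each placed by its log2 difference of pure Jurkat to pure HEK (x axis), in rows by list, filled where the adjusted p was under 0.05. Triangles are lower bounds for genes without a count in HEK, from a floor of 3 counts. The rows of double positive and mature genes lie mostly to the right of 0, that of double negative and progenitor genes on both sides.

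A list of genes for the joining of cut receptor genes held end joining proteins, which every cell uses for DNA repair, and HMGB1 and HMGB2, abundant chromatin proteins that bend DNA and assist the recombinase but join no ends. Of these 12 genes, 5 were higher in Jurkat, 2 lower and 5 neither, with a median log2 difference of 0.31. Over all 15794 genes tested, 19.0% were higher and 3825 genes lower. The 5 higher genes of the list were LIG4, POLM, DCLRE1C, the nuclease Artemis (0.96 ± 0.20), HMGB1 (1.73 ± 0.27) and HMGB2 (1.79 ± 0.50, all log2 ± SE). HMGB2 had 847 and 2311 CPM in the 2 Jurkat libraries. LIG4, the ligase of end joining, had 42.5 and 44.6 CPM in pure Jurkat against 3.49 and 3.23 in HEK, a log2 difference of 3.92 ± 0.23. POLM, the polymerase most like terminal transferase, was higher by 2.21 ± 0.23, and POLL, another polymerase of the family, was lower with a log2 difference of -1.55 ± 0.24. The adjusted p by edgeR were 0.00067, 0.0022 and 0.0070. LIG4 was the 1 gene of this list that rose in the mixtures, with a log2 slope of 0.29 ± 0.068 and an adjusted p of 0.026. Of all 17242 genes tested in the mixtures, 5.08% rose.

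Markers of other blood cells that express members of the CD1 family or DNTT were read in the same libraries. None of 10 myeloid and dendritic markers had enough counts for the test, and their summed level was 1.34 and 1.37 CPM in pure Jurkat and 1.06 and 1.42 CPM in HEK. FCER1A, CLEC10A, CD207, ITGAX and MPO, which include the defining markers of dendritic cells, were at 0 in both Jurkat libraries. Of the B lineage list, 4 of 10 genes were tested, and 3 were higher in Jurkat: IGLL1, part of the surrogate light chain, with 15.8 and 19.9 CPM, CD79A, part of the B cell receptor, with 5.15 and 6.93 CPM, and EBF1, a B lineage factor, with 8.95 and 6.93 CPM against 4.34 and 3.50 in HEK. PAX5, the factor that defines the B lineage, was at 0 in both Jurkat libraries. Of 8 natural killer markers 3 were tested, NKG7 and PRF1 were higher in Jurkat and NCAM1 lower. The counts of both lists stand beside 19.0% higher and 3825 genes lower among all 15794 genes tested.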

How the data were processed

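RNA-seq of 14 libraries was used, 2 for each of 7 conditions, grouped by the percentages in the labels. The authors prepared strand-specific libraries with an oligo-dT primer, aligned reads with STAR 2.6.1b to GRCh38 with ERCC sequences added, and quantified genes by RSEM 1.3.1. They deposited expected counts per gene, not normalized, and TPM scaled over genes and spike-ins together. The annotation release and the use of strand in counting are not given in the sources used here. The series table was not used.

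CPM used the totals of 58440 genes and left out 92 spike-ins, TPM were rescaled without them, and symbols came from GENCODE 44 by identifier (57754 matched, the others held at most 0.327% of counts). Expected counts were rounded and tested with edgeR 4.0.16 (TMM, filterByExpr, quasi-likelihood, Benjamini-Hochberg, 0.05) in R 4.3.3. The pure lines were compared with 2 libraries each, and slopes were fitted over the 10 mixtures. SE is the log2 value divided by the square root of F. DESeq2 1.42.0 and limma 3.58.1 on log2(TPM + 0.1) were alternatives, as were other scalings, no filter on low counts, spike-in totals and leaving out libraries. Counting intervals are exact at 95% and, like the floor of 3 counts, cover counting error only. Spike-ins took 0.674% to 7.65% of counts.

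All 10 genes are named. Of each list, genes were named where called and among the 3 highest or lowest differences, or where they define a stage, and a few more listed genes were named after their values were seen. Some listed genes are counted but not reported here by name. The genes and lists were chosen with earlier results of these data known. On simulated data, edgeR called 94% of 50 genes set to an 8-fold difference between the pure lines, 58% at 4-fold and 4% at 2-fold. Of the 141 genes called there, 13 had been left unchanged.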

Additional observations from a re-analysis of the deposited data

How the results depend on the processing

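CD1E, DNTT, CD1A and CD1B were called higher in pure Jurkat under every alternative run except the Bonferroni adjustment, by edgeR, where 1 was, and their slopes were called in every alternative except that of DNTT within the first file label. The number of the 10 genes called higher was 8 without the filter (11.2% of all genes tested), 7 when all 14 libraries shared the spread (17.9%), 6 with DESeq2 (14.2%) and 6 with limma on TPM (11.1%), 4 with DESeq2 and Bonferroni adjustment (2.85%), and 4 when any 1 pure library was left out. Over all genes, 509 were higher and 14616 lower with spike-in totals, which moved the median log2 difference of all genes to -3.61, 43 and 22 with Bonferroni adjustment, and 902 and 883 with DESeq2 and Bonferroni adjustment. Leaving out 1 library gave 1362 to 2843 higher and 1769 to 3384 lower. With library totals alone 33.8% of calls were higher, against 44% in the reported fit, and 36.7% with limma on TPM. The last, and DESeq2 with Bonferroni adjustment, were chosen after seeing the data.

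In the mixtures, spike-in totals gave 212 rising and 13485 falling genes, file labels as a term 481 and 31, and DESeq2 251 falling. Leaving out 1 library gave 554 to 946 rising and 18 to 209 falling. The fits within file labels, chosen after seeing the data, gave 203 rising and 0 falling in the first (1842 genes at an unadjusted p under 0.05) and 165 and 434 in the second. The slope of CD8A reversed to -0.26 with spike-in totals, without a call. The median ratio of measured to predicted level over CD1A, CD1B, CD1E and DNTT was 1.80, and 2.33 when the RNA share came from the mixed percentages and the spike-in coefficient. The log2 ratio of the summed level of the 10 genes in Jurkat to HEK was 7.23 in CPM and 3.96 per 1000 spike-in counts. Apart from the spike-in settings, whose construction adds the RNA content of the lines, the cause was not tested. No paired analysis was possible because the labels give no replicate numbers that pair libraries of different conditions. At 4468822 counts a level of 1 CPM is about 4 counts, so RAG1, RAG2, PTCRA, CD4, CD8A and CD8B rest on few counts in pure Jurkat.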
